A study of Mus musculus with 27 samples.

Results

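Bone marrow-derived macrophages (BMDMs) sampled after 2 h of lipopolysaccharide (LPS) were compared with untreated BMDMs, with 3 samples in each group out of the 27 samples of the series. A gene was described if 3 or more of these 6 samples had a normalised read count of 10 or above, which took in 11990 of the 45070 genes of the table. In the series, macrophages were kept for 1 h in DMSO, the solvent of the kinase inhibitors tested in other samples of the project, before they were left untreated or stimulated with LPS or with IL-4. Cells were taken after 0.5, 1, 2 and 4 h, and RNA bound to chromatin was sequenced. The cells of all groups were wild type and primary, grown from the marrow of male C57/BL6 mice that were 6 to 8 weeks old, so the untreated group carries the DMSO exposure as well. LPS came from Escherichia coli and was used at 10 ng/ml. No source used here says whether the 3 replicates came from separate mice or cultures, so every p-value below measures the spread between these samples, which may be technical.

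LPS is bound by the receptor TLR4 together with CD14 and MD-2, and signals through the adaptors MyD88 and TRIF. The first branch activates NF-κB and MAP kinases, which switch on cytokine and chemokine genes, and the second activates IRF3 and leads to secretion of IFN-β, which acts back on the cells through its receptor to switch on antiviral genes. Chromatin-associated RNA consists largely of transcripts still being made, introns included, so it follows current transcription more closely than messenger RNA in the cytoplasm does.

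All 10 macrophage markers examined, among them Csf1r, Adgre1, Cd68, Itgam and Lyz2, were measured in these samples, and their summed level was 11590 to 13549 normalised read counts in untreated samples and 11726 to 13096 at LPS 2 h. The marker lists of neutrophils, mast cells or basophils, B cells, T or NK cells, erythroid, stromal and dendritic cells stayed between 2 and 268 in any sample, and Ly6g, Elane, Cd3e, Cd3g, Hba-a1 and Xcr1 were at 0 in all 6 samples. A 0 need not mean absence, since Csf2ra and Fcgr3, members of the macrophage identity list, were also at 0 in all 27 samples. Pdgfrb rose, from 3, 0 and 2 to 50, 102 and 72. The stromal list was at 39 to 92 in untreated samples and at 119 to 268 at LPS 2 h, with 3 of its 7 markers (Col1a1, Col1a2 and Pdgfrb) reaching the filter. The neutrophil list was at 9 to 19 in untreated samples and at 15 to 124 at LPS 2 h, with Ngp alone of its 8 markers reaching the filter, and the T or NK list was at 5 to 13 and 18 to 38, with Lck alone of 9. Both Ngp (8, 4 and 4 to 57, 11 and 14) and Lck (0, 0 and 2 to 13, 31 and 30) rose. The mast cell or basophil list was at 2 to 4 and 5 to 11, the dendritic list at 11 to 20 and 17 to 40, the B cell list at 3 to 7 and 2 to 8 and the erythroid list at 77 to 96 and 46 to 64. The part of such cells in any result was not tested. Since these are bulk samples, fewer cells of a type and less RNA per cell cannot be told apart. Replicate 1 stood apart from replicates 2 and 3 in both groups: across 4712 genes averaging 100 or more, log2 ratios between replicates had an SD of 0.45 to 0.54 where replicate 1 was in the pair, and of 0.21 to 0.22 between replicates 2 and 3. The values were scaled by the authors, so their sums, 2488987 to 2578543 in untreated samples and 3954399 to 4058199 at LPS 2 h, are not sequencing depths, and the depth behind each value is unknown.

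After 2 h of LPS most of the tested genes had changed: 3454 genes were higher (28.8% of those tested) and 4804 were lower (40.1%) by limma on log2(value + 1) at an adjusted p of 0.05. By at least 2-fold, 2432 rose and 3666 fell, and by at least 16-fold, 365 rose and 210 fell. The median difference over all tested genes was −0.25 on the log2 scale, with quartiles at −1.33 and 0.74, and the values of single genes and lists below stand against it. Counts of list members that rose or fell stand against the 28.8% and 40.1% of all tested genes. The balance of rises and falls depended on how the libraries were scaled. Rescaling by median of ratios gave 4119 rises and 4118 falls, and setting equal totals gave 2186 rises and 7095 falls. Without the replicate 1 libraries, 3646 genes were higher and 4973 were lower. A fit with a term for the replicate number, called the replicate block below, gave 3687 rises and 5229 falls. The 3 samples of each group did not overlap in 73.1% of the tested genes. The filter admitted 487 genes through the LPS samples alone, with every untreated value under 10, and 1095 through the untreated samples alone, and such genes could hardly fail to differ. Among protein-coding genes 27.7% of 10011 rose and 41.0% fell, and among non-coding RNA genes 33.2% of 1791 rose and 37.1% fell.

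**Figure D1:**
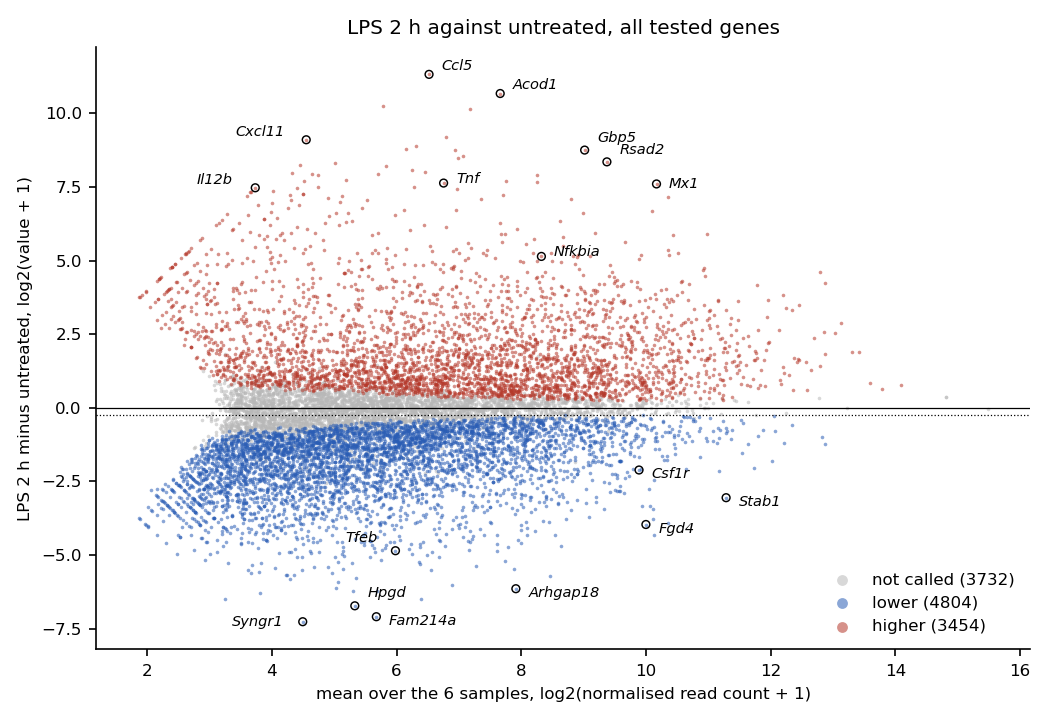
Each point is 1 of the 11990 tested genes, placed by its mean log2(normalised read count + 1) over the 6 samples and by its log2 difference between LPS 2 h and untreated, with genes that passed an adjusted p of 0.05 in red (3454 higher) and blue (4804 lower). The dotted line marks the median of all genes at −0.25, the rises reach 11.32 at Ccl5 and the falls −7.26 at Syngr1.

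The chemokine genes, whose products draw other leukocytes to the site of infection, held the largest rise of the comparison. Ccl5, which attracts T cells and monocytes, had 1, 2 and 0 normalised read counts in the 3 untreated samples and 4311, 4579 and 5045 at LPS 2 h. Against a floor of 3 counts this is at least 1548-fold higher, and the fitted log2 difference with its SE was 11.32 ± 0.35 (adjusted p = 6.30e-08). The non-coding gene Gm32650 overlaps Ccl5 and was at 3, 3 and 4 and then at 4481, 4835 and 5320, so the reads of this pair cannot be assigned to one of them. The ligands of CXCR3 on T and NK cells rose together: Cxcl10 went from 3, 3 and 2 to 1424, 1917 and 1920, at least 585-fold, and Cxcl11 from 0 in each untreated sample to 368, 663 and 674, at least 189-fold. Both lie inside the span of Art3, which counted 1848, 2720 and 2740 at LPS 2 h. Ccl3 and Ccl4, which attract monocytes and T cells, rose, Ccl3 from 30, 13 and 19 to 883, 1104 and 970 and Ccl4 from 15, 15 and 12 to 3173, 2876 and 3283. Of 21 chemokine genes, 16 were tested, 15 rose and Ccl6 alone fell (16.7 to 4.33 on average). The median was 5.64, or 4.72 with genes near 0 held at their bound, and 11 of the 16 had passed the filter through the LPS samples alone. The neutrophil attractants Cxcl1 and Cxcl2 reached means of only 54.0 and 135, while Cxcl3 stayed at 5 or below and was not tested.

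Among cytokine genes, Tnf, a central mediator of inflammation, was at 4, 9 and 8 in untreated samples and at 1405, 1651 and 1508 at LPS 2 h, a difference of 7.63 ± 0.26 (adjusted p = 8.42e-08). Il1b, the pro-inflammatory cytokine released on inflammasome cleavage, went from 6, 9 and 24 to 1272, 1312 and 1248, and the 2 groups were far apart in every sample. Il27, which encodes a subunit of IL-27, went from 3, 5 and 3 to 1318, 1219 and 1205, a difference of 8.09 ± 0.20 (adjusted p = 3.21e-08). Its partner subunit gene Ebi3 rose from a mean of 10.0 to 316. Il6 (0, 1 and 0 to 209, 199 and 210, at least 68.7-fold) and Il12b (0 throughout to 175, 164 and 189, at least 58.7-fold) were lower in level. The anti-inflammatory Il10 rose to 186, 190 and 191, from 7, 4 and 11. Il15, already at a mean of 1255 in untreated cells, rose to 17665. Of 29 genes in the list 21 were tested, 10 of them admitted by the filter through the LPS samples alone, so that they could hardly fail to rise. In all 17 rose, and 2 growth factor genes fell: Igf1 from 2149, 1237 and 1418 to 142, 94 and 104, and Tgfb1 by 0.75 ± 0.23, a call that was lost under median-of-ratios scaling and without LPS 2 h replicate 2 or 3 or untreated replicate 1 or 3 (−0.70 to −0.59). Vegfa (95.7 to 52.7) and Pdgfb (66.7 to 95.3) did not pass. Ifnb1, the gene of IFN-β, was at 2, 1 and 0 at LPS 2 h and at 0 in untreated samples, under the filter. Csf2, Csf3 and Il23a also stayed under it.

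In the NF-κB system both the subunits and their own inhibitors rose. Nfkbia, which encodes IκBα and holds NF-κB in the cytoplasm, went from 49, 55 and 55 to 1490, 2236 and 2056 (5.14 ± 0.16, adjusted p = 6.89e-08). Tnfaip3, the ubiquitin-editing enzyme A20, went from 28, 20 and 15 to 5002, 3572 and 4523, and Tnip3, an A20-binding partner, from 226, 265 and 299 to 11785, 17059 and 19115. The subunit genes Nfkb1, Nfkb2, Rel and Relb rose by 3.31, 3.66, 3.15 and 3.02, and Rela by 1.93. All 16 genes of the list were tested, 15 rose, none fell, and the median was 3.23. Cyld, a deubiquitinase that restrains the same pathway, was at 396 and 461 on average and did not pass (0.22).

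Feedback regulators outside NF-κB went both ways within single families. Dusp1, the phosphatase of p38 and JNK, rose from 14, 22 and 39 to 553, 890 and 934, and Dusp2 from 1 in each sample to 248, 221 and 237, at least 78.4-fold. Dusp6 and Dusp7, which act on ERK, fell, the first from 17, 19 and 39 to 6, 2 and 1 and the second from 45, 31 and 38 to 6, 5 and 5. Zfp36, which encodes the mRNA-destabilising protein TTP, rose from 188, 194 and 328 to 1732, 1636 and 1939. Its paralogues went the opposite way: Zfp36l1 fell from 187, 194 and 207 to 5, 11 and 14 and Zfp36l2 from 138, 113 and 139 to 7, 3 and 5. Traf1 (2, 7 and 6 to 1175, 1532 and 1541) had the largest rise of the list. In all, 17 of 23 tested members rose (73.9%, beside 28.8% of all tested genes) and 5 fell (21.7%, beside 40.1%). The median was 2.36. The filter had admitted Dusp6, Dusp7 and Zfp36l2 through the untreated samples alone and 2 members through the LPS samples alone. These genes could hardly fail to differ. The directions of Zfp36 and its paralogues were the same under each scaling tried.

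The immediate early transcription factors, which many stimuli switch on within minutes, were mixed at 2 h: of 22 genes 15 were tested, 8 rose, 1 fell and 6 did not pass, with a median of 0.98. The shares that rose and fell were 53.3% and 6.67%, beside 28.8% and 40.1% of all tested genes. Fos, a subunit of AP-1, was the one lower than in untreated cells (15, 19 and 45 against 8, 7 and 7, −1.56 ± 0.41, adjusted p = 0.00836), though the untreated samples were themselves spread. The filter had admitted Fos through the untreated samples alone. Egr1 was at 3, 0 and 1 and at 2, 1 and 18 without LPS, and was not tested. Myc (12, 9 and 14 against 6, 14 and 9) and Jun (35.7 against 43.7 on average) did not pass. Among the members that rose, the orphan receptor gene Nr4a3 went from 1, 0 and 0 to 98, 65 and 86, Junb from 18, 18 and 49 to 184, 186 and 235, and Atf3, a repressor of cytokine genes, from 104, 100 and 113 to 560, 625 and 684.

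**Figure D2:**
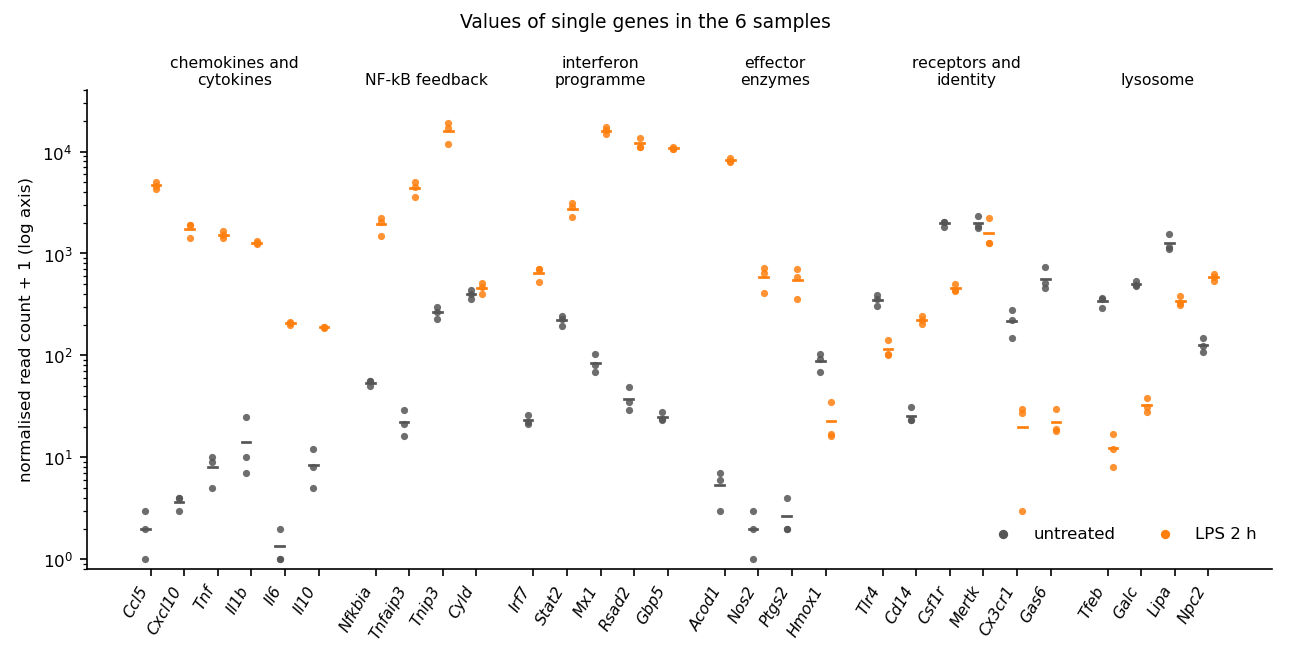
Normalised read counts plus 1 on a log axis for genes of 6 roles in the 3 untreated (grey) and 3 LPS 2 h (orange) samples, with a bar at the mean. The groups do not overlap for any gene shown except Cyld and Mertk, and Hmox1, Tlr4, Csf1r, Cx3cr1, Gas6, Tfeb, Galc and Lipa lie lower at LPS 2 h.

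Interferon-stimulated genes, whose products block the replication of viruses and other pathogens, rose in nearly every tested case. Mx1, a GTPase gene of the antiviral list, went from 80, 67 and 102 to 17290, 14734 and 16096 (7.60 ± 0.15, adjusted p = 2.11e-08). Rsad2, which encodes viperin, went from 28, 34 and 48 to 13727, 11157 and 11164, and Ifit1, which binds viral RNA, from 7, 8 and 11 to 1682, 1542 and 1687. The largest rises of the antiviral list were those of Oasl1 (3, 1 and 4 to 1512, 1458 and 1498) and Ifi205 (5, 6 and 4 to 2407, 2687 and 2513). Of 34 tested antiviral genes 33 rose and 1 fell, with a median of 4.27. The Oas enzyme genes Oas1a, Oas2 and Oas3 rose by 3.84, 2.79 and 4.18. Guanylate-binding proteins and immunity-related GTPases, which attack vacuoles that hold pathogens, rose in 13 of 14 tested genes with a median of 5.38. Gbp5 went from 22, 27 and 23 to 10552, 11062 and 10673 (8.75 ± 0.11, adjusted p = 3.45e-09), while its relative Gbp8 was at 15, 25 and 11 and at 29, 21 and 19 and did not pass.

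Both activators and inhibitors of interferon signalling rose, 23 of 28 tested regulators in all, with 3 falls and a median of 1.87. The shares that rose and fell were 82.1% and 10.7%, beside 28.8% and 40.1% of all tested genes. Stat2, a factor of the type I response, rose by 3.63, Irf1 by 4.48 (74, 63 and 65 to 1725, 1413 and 1439) and Irf7, which amplifies interferon genes, by 4.81 (21, 20 and 25 to 528, 711 and 704). The kinase gene Jak2 rose from a mean of 161 to 5839, more than Jak1 (1.79), Tyk2 (1.83) and Jak3 (0.89). Inhibitors rose too: Socs1 from 0, 2 and 1 to 155, 155 and 159, Socs3 from 3, 2 and 5 to 483, 414 and 462, and Usp18 from a mean of 54.7 to 3050. Cish, also in this list, rose from 1, 5 and 1 to 296, 523 and 482. The receptor gene Ifngr1 fell from 173, 175 and 196 to 58, 61 and 54, whereas Ifngr2, Ifnar1 and Ifnar2 rose by 0.84 to 1.34. Stat6, the IL-4 signal transducer, fell by 1.07 ± 0.15 and Irf4 by 1.43. Irf3, the factor that starts the interferon response and is activated without new transcription, was at 44.0 and 32.0 and did not pass. Irf4 also shows where the filter acts: its untreated values of 21, 16 and 10 put it just inside, whereas Gbp11, at 0 in untreated samples and at 16, 9 and 13 at LPS 2 h, was just outside.

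The 250 bases before the start of 5 of these genes are shown because they carry matches to the binding motifs of the factors named above, the interferon-stimulated response element (ISRE, searched as GAAANNGAAA on both strands) and the NF-κB site (searched by its usual 10-base consensus on both strands). Sequences are from RefSeq (GRCm38.p6), run 5′ to 3′ on the strand of the gene and end at the base before the start, and capitals mark the matches. In Cxcl10 (chr5:92348890-92349139, minus strand) the ISRE starts 213 bases before the start of the gene and NF-κB matches start 159, 104 and 103 bases before it, the last 2 overlapping. Gbp5 (chr3:142496684-142496933, plus strand) has both motifs. Gbp2 (chr3:142620413-142620662, plus strand) has 1 ISRE, Ifit1 (chr19:34640639-34640888, plus strand) has 2, and Nfkbia (chr12:55492648-55492897, minus strand) has an NF-κB match 29 bases before its start.
Cxcl10: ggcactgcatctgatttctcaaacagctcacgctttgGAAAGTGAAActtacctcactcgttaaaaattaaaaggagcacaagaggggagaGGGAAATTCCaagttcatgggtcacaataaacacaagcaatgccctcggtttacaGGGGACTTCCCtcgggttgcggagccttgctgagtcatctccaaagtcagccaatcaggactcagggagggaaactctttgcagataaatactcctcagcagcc
Gbp5: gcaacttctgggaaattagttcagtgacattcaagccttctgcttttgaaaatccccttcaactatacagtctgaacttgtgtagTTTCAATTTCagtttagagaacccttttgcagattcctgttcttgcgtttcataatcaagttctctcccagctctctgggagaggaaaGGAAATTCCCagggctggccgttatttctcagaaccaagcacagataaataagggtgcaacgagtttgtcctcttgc
Gbp2: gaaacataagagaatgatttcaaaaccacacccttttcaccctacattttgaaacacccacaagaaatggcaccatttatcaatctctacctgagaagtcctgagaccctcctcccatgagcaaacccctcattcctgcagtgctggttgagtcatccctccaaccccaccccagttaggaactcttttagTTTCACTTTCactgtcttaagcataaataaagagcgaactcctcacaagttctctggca
Ifit1: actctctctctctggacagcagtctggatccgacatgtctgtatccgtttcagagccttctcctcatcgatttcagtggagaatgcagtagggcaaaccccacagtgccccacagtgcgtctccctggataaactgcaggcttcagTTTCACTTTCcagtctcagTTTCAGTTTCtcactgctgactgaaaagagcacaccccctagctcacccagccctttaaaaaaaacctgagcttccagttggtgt
Nfkbia: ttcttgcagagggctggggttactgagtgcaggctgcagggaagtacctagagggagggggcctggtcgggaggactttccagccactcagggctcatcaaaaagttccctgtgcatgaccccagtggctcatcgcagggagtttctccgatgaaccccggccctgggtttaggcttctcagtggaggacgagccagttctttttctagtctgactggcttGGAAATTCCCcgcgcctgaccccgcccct

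Of the tested genes, 9427 had a promoter in the RefSeq table. An ISRE match was present in 2.97% of these, an NF-κB match in 8.49% and an AP-1 match (TGANTCA on both strands) in 4.33%. Over all 27019 promoters matched to genes, tested or not, the shares were 3.05%, 7.03% and 6.85%, so the AP-1 background depends on the set taken. Among the 283 promoters of genes that rose by at least 16-fold the shares were 11.7%, 17.7% and 13.1%, and among the 161 of genes that fell by at least 16-fold 1.86%, 4.35% and 5.59%. By list, ISRE matches were in 8 of 9 promoters of guanylate-binding proteins and immunity GTPases and in 9 of 24 antiviral promoters. NF-κB matches were in 8 of 13 promoters of NF-κB subunits and inhibitors and in 4 of 10 chemokine promoters. Several genes with very large rises, Acod1 and Tnf among them, had neither motif in this window. A match is a run of letters, and no binding was measured here.

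Effector enzymes of the activated macrophage made up the next group. Acod1, which makes itaconate, went from 5, 6 and 2 to 7880, 8562 and 8100, a difference of 10.67 ± 0.28 (adjusted p = 3.87e-08). The overlapping non-coding gene Gm41235 went from 0, 1 and 1 to 1724, 2019 and 1997, at least 638-fold. Nos2, the inducible nitric oxide synthase, went from 1, 0 and 2 to 413, 719 and 643, and Ptgs2, the prostaglandin-forming enzyme COX-2, from 1, 3 and 1 to 354, 708 and 592. The collagenase gene Mmp13 (5, 10 and 4 to 2261, 2518 and 3043) was among the 8 largest rises of protein-coding genes. Other members that rose were the arginine transporter gene Slc7a2 (12.3 to 934 on average), Gch1, which makes a cofactor of Nos2 (61.7 to 965), and the glycolytic activator gene Pfkfb3 (271 to 3333). Of 29 tested genes, 7 of them admitted by the filter through the LPS samples alone, 23 rose with a median of 3.29. The shares that rose and fell were 79.3% and 10.3%, beside 28.8% and 40.1% of all tested genes. The 3 that fell were Hmox1, which encodes the haem-degrading enzyme heme oxygenase 1, and the glutathione synthesis genes Gclm and Gclc: Hmox1 from 103, 68 and 92 to 34, 16 and 15, Gclm from 99, 86 and 95 to 67, 20 and 21, and Gclc from 84, 74 and 89 to 53, 23 and 24. For Gclm and Gclc the replicate 1 value at LPS 2 h was higher than the other two, and the call of Gclm was lost with replicates 2 and 3 averaged (−1.32, adjusted p = 0.0804). The thioredoxin genes Txn1 (68, 67 and 68 to 641, 553 and 458) and Txnrd1 (230, 208 and 203 to 1323, 748 and 770) rose. Txnrd1 is a member of this list and Txn1 is in no list, and both were chosen after their values were seen.

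The sensing machinery itself changed in both directions. Tlr4, the LPS receptor gene, fell from 304, 356 and 388 to 101, 103 and 142 (−1.60 ± 0.17, adjusted p = 4.87e-05), while the genes of its partners rose: Cd14 from a mean of 24.7 to 221, Ly96, which encodes MD-2, from 114 to 274, and Myd88 from 17.3 to 177. Tlr1, Tlr2, Tlr3 and Tlr6 rose by 1.47 to 2.82, Tlr13 fell by 2.26, Tlr5 fell at least 5.67-fold to 1, 3 and 0, and Tlr7, Tlr8 and Tlr9 did not pass. The cytosolic sensors Nod1 and Nod2 rose by 4.11 and 4.60, and Casp4, the mouse caspase-11 that binds LPS inside the cell, from 143, 144 and 138 to 3036, 3630 and 3772. Among C-type lectin receptors Clec4e, which encodes Mincle, rose from 13, 21 and 21 to 716, 783 and 777, and Clec7a, which encodes Dectin-1, fell from 127, 153 and 144 to 13, 21 and 18. Of 27 tested genes of this list 17 rose (63.0%, beside 28.8% of all tested genes) and 5 fell (18.5%, beside 40.1%).

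Of 39 tested kinases of the TLR4 pathway 18 rose, 11 fell and 10 did not pass. The shares that rose and fell were 46.2% and 28.2%, beside 28.8% and 40.1% of all tested genes. The median was 0.26, and it was −0.39 under equal totals. The rises were in Ripk2, which relays Nod1 and Nod2 signals (185, 152 and 154 to 2953, 3565 and 3236), Ikbke (497, 328 and 308 to 4484, 4027 and 4276), the p38 substrate Mapkapk2 (761, 560 and 640 to 9545, 7122 and 7374) and Irak2 (354 to 2827 on average). Map2k6, an upstream kinase of p38, fell from 144, 171 and 180 to 2, 3 and 4, a difference of −5.40 ± 0.27 (adjusted p = 5.44e-07). The filter had admitted Map2k6 through the untreated samples alone. Map2k3, another upstream kinase of p38, stayed at 95.3 and 113. The p38α gene Mapk14 fell from 890 to 399 and the JNK1 gene Mapk8 from 272 to 103. Among the inhibitor of NF-κB kinases, Ikbkb rose by 2.05 and Chuk (0.07) did not pass.

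Antigen presentation by MHC class I rose in 16 of 19 tested genes and fell in none, with a median of 3.23. The peptide transporter genes Tap1 and Tap2 rose by 4.44 and 3.59, the chaperone gene Tapbp from 109, 132 and 150 to 1750, 2305 and 2037, and Nlrc5, the transactivator of class I genes, from 327, 334 and 380 to 5899, 7363 and 6755. The class I genes H2-K1 and H2-D1 rose less, by 2.01 and 1.84, and since they are close paralogues and reads with several hits were removed, their values are uncertain. Of 16 class II genes 10 were tested, 5 rose and 2 fell, and Ciita, the class II transactivator, was at 43.7 and 39.0. The rises of H2-DMa and Ctss, 0.78 and 0.73, did not pass under equal totals. Costimulatory and adhesion genes rose in 16 of 19 tested members: Cd40 from 44, 27 and 43 to 5481, 5220 and 4948, Cd274, which encodes PD-L1, from 51, 28 and 44 to 2555, 1880 and 2056, and Icam1 from a mean of 59.7 to 2713. Cd86 rose by 3.88 and Cd80 by 1.31. The integrin gene Itgb2 fell from 349, 413 and 466 to 139, 139 and 121, and its partner genes differed, with Itgal at 156 and 1254 and Itgam at 725 and 678, the last not passing.

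Of 20 tested genes of the BCL-2 family and of survival 10 rose and 4 fell, with a median of 0.52 that was −0.13 under equal totals. Cflar, an inhibitor of caspase-8, rose from 429, 371 and 376 to 5103, 4569 and 4871, and the anti-apoptotic Bcl2a1a and Bcl2a1b rose, the first at least 49.2-fold and the second by 3.81, although these are near-identical copies and Bcl2a1d was listed at 0. Bmf and Bcl2, a pro- and an anti-apoptotic member, fell together, the first from 99, 84 and 102 to 4, 1 and 2 and the second from 180, 231 and 244 to 54, 31 and 43.

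Genes that define resting macrophages went both ways: 20 of 39 tested members fell (51.3%, beside 40.1% of all tested genes), 14 rose (35.9%, beside 28.8%), and the median was −0.61. The filter had admitted 5 of the 39 through the untreated samples alone. Csf1r, the receptor for the growth factor that keeps macrophages alive, fell from 2052, 1814 and 2048 to 427, 501 and 441 (−2.11 ± 0.11, adjusted p = 6.10e-07). The chemokine receptor genes Cx3cr1 (147, 221 and 279 to 2, 26 and 29), Ccr2 (44, 97 and 97 to 4, 3 and 8) and Cxcr4 (90, 72 and 53 to 1, 3 and 3) fell, as did the scavenger receptors Stab1 (7289 to 869 on average), Mrc1 (1878 to 360) and Cd36 (321 to 48.3). Of the receptors that take up apoptotic cells, Mertk was at 2310, 1847 and 1785 and then at 2219, 1271 and 1277 and did not pass (−0.36 ± 0.22, adjusted p = 0.173), but it passed without the replicate 1 libraries (−0.51, adjusted p = 0.00063), under equal totals (−1.02) and in the fit with the replicate block (adjusted p = 0.0108). Its relative Axl rose from 133 to 1146, and Gas6, a ligand of both, fell from 728, 454 and 516 to 29, 17 and 18. The lineage factor genes split: Spi1, which encodes PU.1, rose by 1.69 and Mitf by 1.91, while Maf fell by 1.29, Pparg fell by 2.25 and Cebpa went from 11, 11 and 14 to 1, 1 and 0. The scavenger receptor genes Msr1 (551, 810 and 865 to 5098, 7055 and 7536) and Marco (1, 0 and 0 to 120, 21 and 38) and the Fc receptor gene Fcgr1 (87, 45 and 85 to 657, 719 and 794) rose.

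Lysosome and autophagy genes were lower in 25 of 33 tested members and higher in 6, with a median of −1.12. Tfeb, the factor that controls this set of genes, fell from 366, 359 and 294 to 16, 7 and 11 (−4.85 ± 0.28, adjusted p = 1.25e-06). Galc, a lysosomal galactosidase, fell from 530, 488 and 482 to 27, 37 and 30, Lipa, which frees cholesterol from its esters, from a mean of 1275 to 338, and the autophagy kinase gene Ulk1 from 174, 189 and 206 to 13, 39 and 26. The members that rose included Npc2, a cholesterol carrier (123, 107 and 146 to 631, 538 and 583), Ctsc and the autophagy receptor gene Sqstm1. Sterol and fatty acid genes had a median of −0.09, which was 0.15 under median-of-ratios scaling: 6 of 27 rose, among them Hmgcs1, an enzyme of sterol synthesis (37, 37 and 41 to 71, 120 and 66, a call lost under equal totals), and 8 fell, among them Soat1 (786, 735 and 689 to 104, 195 and 144) and the cholesterol exporter Abca1 (2734, 1967 and 1984 to 1031, 995 and 1156). The shares of the sterol list that rose and fell, 22.2% and 29.6%, were under the 28.8% and 40.1% of all tested genes.

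Cell cycle genes depended on how replicates were treated. Of 33 tested members 5 rose and 13 fell (39.4%, close to the 40.1% of all tested genes), and the filter had admitted 4 through the untreated samples alone. The median was −1.66, and 30 passed in either direction with the replicate block, 27 without the replicate 1 libraries and 11 without untreated replicate 2, or 15 where the tested genes were kept. With a filter on a mean of at least 50, the median was −0.08. E2f7 shows the spread, at 5, 107 and 106 in untreated samples, and at 4, 9 and 4 at LPS 2 h, which left it under the filter. Among G1 regulators, the cyclin genes went opposite ways: Ccnd2 rose from 8, 7 and 10 to 586, 589 and 631 and Ccnd3 fell from 210, 183 and 233 to 12, 16 and 18. The kinase gene Cdk6 rose from 834, 548 and 568 to 8350, 7430 and 8506 and the inhibitor gene Cdkn1a from 70, 91 and 137 to 1593, 1343 and 1266. The replication gene Mcm7 (26, 53 and 74 to 1, 3 and 4) and the transcription factor gene E2f2 (34, 88 and 98 to 6, 1 and 4) fell. The filter had admitted both through the untreated samples alone.

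Genes of basic cell functions were looked at by 3 lists drawn from gene names and by Actb. The list drawn by the names of cytoplasmic ribosomal proteins had 39 rises and 2 falls among 69 tested genes, with a median of 0.74, and only 16 of its genes passed under equal totals. Both that fell, Rps6ka1 and Rps6ka5, are kinase genes that the name pattern took in, and without the 8 tested genes of this kind 37 of 61 rose and none fell. Rpl24 went from 28, 39 and 24 to 99, 118 and 131 and Rps9 from 64, 77 and 68 to 196, 321 and 265. Of 70 tested genes of oxidative phosphorylation 10 rose and 12 fell, with a median of −0.12 that was 0.12 under median-of-ratios scaling, and of the largest falls Sdhaf3 (191, 144 and 143 to 45, 46 and 46) encodes an assembly factor rather than a subunit. The shares of this list that rose and fell, 14.3% and 17.1%, were under the 28.8% and 40.1% of all tested genes. Zinc finger genes named Zfp were lower in 148 of 265 tested members and higher in 32 (55.8% and 12.1%), with a median of −0.76, and 28 of them had passed the filter through the untreated samples alone. Zfp395 fell from 245, 230 and 251 to 8, 9 and 9, and Zfp366 rose from 2, 0 and 1 to 61, 46 and 68. Actb, often used as a reference gene, rose from 273, 274 and 355 to 1100, 1410 and 1436.

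**Figure D3:**
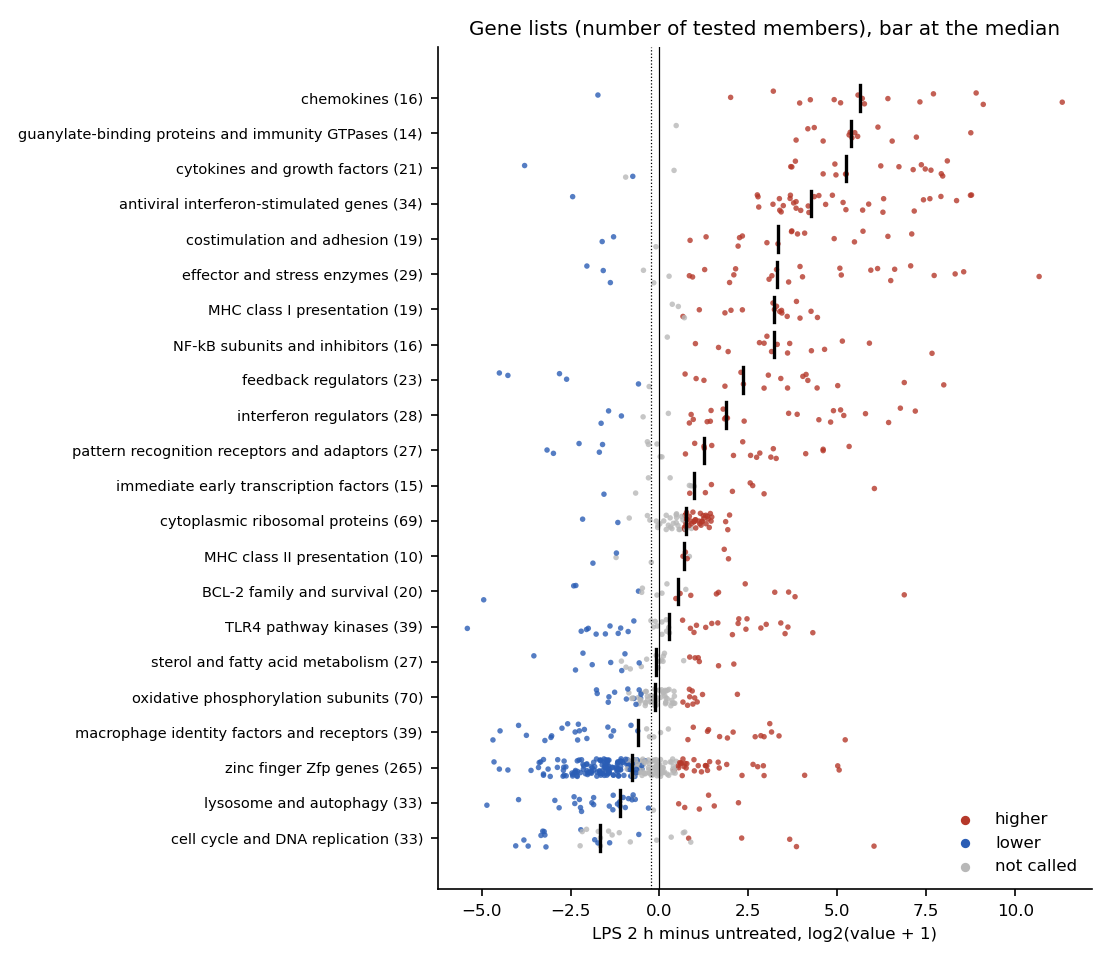
The log2 difference between LPS 2 h and untreated for each tested member of 22 gene lists, with a bar at the median of the list and a dotted line at the median of all tested genes (−0.25). Medians run from 5.64 for chemokines to −1.66 for cell cycle genes, and most lists hold members on both sides of 0.

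The 8 largest falls among protein-coding genes were led by Syngr1, a synaptic vesicle protein gene, which fell from 346, 226 and 276 to 0, 1 and 2, at least 94.2-fold. Fam214a went from 596, 588 and 601 to 5, 1 and 6, and Hpgd, which breaks down prostaglandins, from 388, 403 and 447 to 5, 1 and 4 (−6.72 ± 0.39, adjusted p = 1.34e-06). Arhgap18, a GTPase-activating protein gene, started highest, at 1945, 2054 and 2080, and ended at 32, 22 and 30. Rcbtb2 fell from 1038, 713 and 693 to 8, 5 and 12. The transporter genes Slco2b1, Slc26a11 and Abcd2 fell (−6.22, −6.21 and −6.10), and Abcd2, which imports fatty acids into peroxisomes, went from 229, 296 and 284 to 2, 4 and 3. Among genes of other types, Gm16685, which overlaps Il7, rose from 5, 3 and 3 to 2205, 2658 and 3198. The largest falls of this kind were those of Gm34280, inside Slco2b1 (118, 79 and 74 to 0), Gm46162 (140, 110 and 121 to 0, 1 and 1) and 4933406I18Rik (165, 225 and 196 to 3, 3 and 5). Among tested genes 1875 overlap a gene of their own strand and 4777 a gene of the opposite strand, and whether reads were counted by strand is not stated in the sources used here.

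To place 2 h within the response, the 2 h samples were compared with those at 1 h and 4 h in a fit of the 15 untreated and LPS samples, over 13130 genes. Against 1 h, 22.6% of genes were higher at 2 h and 22.9% lower, and against 4 h 12.3% were higher and 12.1% lower. These contrasts share the 2 h samples with each other and with the comparison against untreated. Interferon-stimulated genes were largely higher than at 1 h: 32 of 34 antiviral genes and 15 of 15 GTPase genes were higher at 2 h than at 1 h and none lower, whereas none was higher than at 4 h and 2 and 4 were lower than at 4 h. Mx1 was at 792, 272 and 233 at 1 h, at 17290, 14734 and 16096 at 2 h and at 22585, 21391 and 23450 at 4 h. Class I presentation had 16 of 19 genes higher at 2 h than at 1 h. Immediate early genes ran the other way, with 12 of 20 lower at 2 h than at 1 h and none higher. Egr1 was at 291, 233 and 380 at 0.5 h and at 19, 16 and 12 at 1 h, before the low values at 2 h, and Myc was at 71, 106 and 130 at 1 h. Ifnb1 had its highest values at 1 h, 17, 16 and 5, and was at 0 again at 4 h.

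Cytokine genes differed in whether 2 h was before or after the maximum. Il12b was at 663, 535 and 451 at 1 h and at 47, 42 and 30 at 4 h, so that at 2 h it was 1.62 ± 0.19 below 1 h and 2.14 ± 0.19 above 4 h on the log2 scale (adjusted p = 3.86e-06 and 9.63e-07). Il6 continued upwards, from 120, 72 and 72 at 1 h to 401, 398 and 366 at 4 h. Nos2 was at 35, 23 and 23 at 1 h and at 1820, 2232 and 2357 at 4 h. Tnf and Nfkbia at 2 h did not differ by the test from 1 h (−0.11 and 0.20) or from 4 h (0.44 and 0.19). Igf1, far below untreated at 2 h, had first been at 10575, 7313 and 8234 at 0.5 h.

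A set of 428 genes was higher at 2 h than at both 1 h and 4 h (3.26% of those tested), and 334 of the 427 also tested against untreated were above it. Cxcl9, the third CXCR3 ligand gene, was at 8, 4 and 2 at 1 h, at 164, 157 and 157 at 2 h and at 30, 31 and 24 at 4 h, 4.97 ± 0.39 above 1 h and 2.46 ± 0.39 above 4 h (adjusted p = 5.53e-08 and 0.000307). Irf8, a lineage factor that acts with PU.1 and Irf1, was at 489, 207 and 227 at 1 h, at 1895, 1193 and 1412 at 2 h and at 468, 403 and 386 at 4 h. Lag3, best known as a checkpoint receptor of T cells, was at 51, 57 and 70 at 2 h and at 16 or below at every other time. Arhgap23 (922, 686 and 719 at 2 h) and 4933428G20Rik overlap, and so do LOC115487465 and Chst11, so the pairs may share reads. Elovl6, which lengthens fatty acids, was at 32, 6 and 14 at 1 h, at 155, 146 and 285 at 2 h and at 10, 15 and 16 at 4 h. Creb3l1, a membrane-bound transcription factor gene, reached 81, 81 and 87 at 2 h and 27, 21 and 18 at 4 h. Of the 28 tested interferon regulators 5 were in the set: Irf1, Irf8, Stat5a, Stat5b and Cish. Cish was at 113, 168 and 209, at 296, 523 and 482 and at 27, 19 and 22 at 1, 2 and 4 h.

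A set of 564 genes was lower at 2 h than at both neighbouring times (4.30% of those tested), and 432 of the 532 also tested against untreated were below it. Fnip2, a partner of folliculin in nutrient sensing, was at 3484, 2514 and 2149 at 1 h, at 428, 295 and 293 at 2 h and at 1952, 2284 and 2621 at 4 h (−2.99 ± 0.18 and −2.76 ± 0.18, adjusted p = 3.97e-09 and 6.12e-08). Gm36442, within Fnip2, was at 9, 3 and 7 at 2 h. Stap1, an adaptor protein gene, was at 428, 593 and 556, at 64, 94 and 90 and at 304, 531 and 581 at the 3 times. Sla, which encodes an inhibitory adaptor of antigen receptors, lies within Tg and was at 346, 356 and 363, at 66, 82 and 92 and at 291, 382 and 336. Fgd4, an activator of Cdc42, went from 2115, 1577 and 1367 at 1 h to 288, 247 and 242 at 2 h and was at 925, 1177 and 1290 at 4 h. Gm8149 lies within Uvrag, and both were at their lowest at 2 h, Uvrag at 265, 283 and 311 against 1880, 2074 and 1936 at 1 h and 1071, 1203 and 1150 at 4 h. Gm13986 was at 26, 12 and 17 at 2 h and at 61 or above at 1 h and 4 h. Of the 34 tested lysosome and autophagy genes 8 were in this set: Ctsz, Lamp1, Npc1, Mcoln1, Tfeb, Tfe3, Gpnmb and Uvrag. Of these Ctsz was still above untreated at 2 h. Tfeb was at 135, 93 and 78 at 1 h and at 51, 37 and 28 at 4 h, still far below the untreated samples. When replicates 2 and 3 were averaged, leaving 2 values a group, the sets held 138 and 246 genes, and without the replicate 1 libraries they held 701 and 763.

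**Figure D4:**
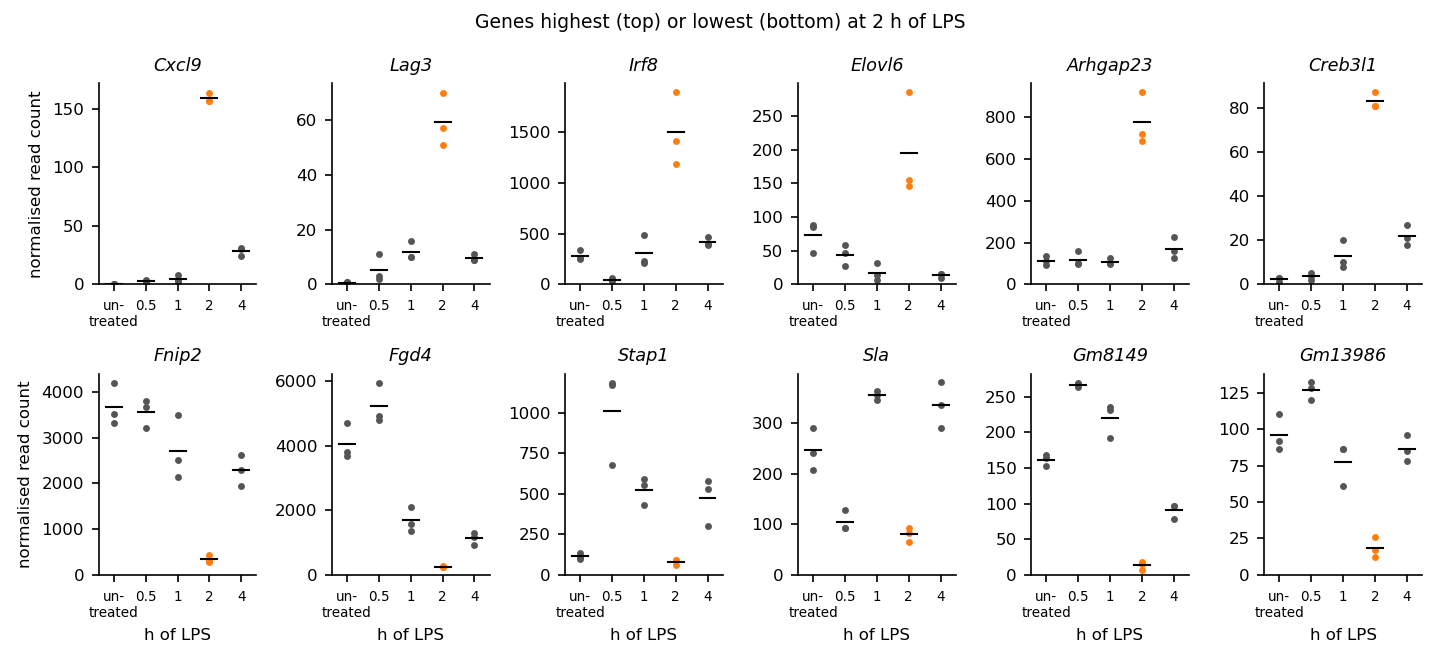
Normalised read counts of 12 genes in untreated cells and after 0.5, 1, 2 and 4 h of LPS, 3 samples each with a bar at the mean and the 2 h samples in orange. The upper genes are highest at 2 h (Cxcl9 at 157 to 164) and the lower ones lowest (Fgd4 at 242 to 288). Their 2 h values do not overlap those at 1 h and 4 h, as the choice of these genes required.

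The share of protein-coding genes that fell was larger in genes of longer span, up to 200 kb. It was 24.5% of 673 genes under 5 kb, 36.4% of 3260 from 5 to 20 kb, 43.8% of 3069 from 20 to 50 kb, 45.4% of 1583 from 50 to 100 kb and 51.9% of 914 from 100 to 200 kb, and 41.8% of 512 above that. The share that rose stayed between 24.7% and 33.8%. Longer genes had higher values, with a median untreated level of 19.0 in the shortest and 406 in the longest class. Among genes with an untreated mean of at least 50 the share that fell was 31.6% in the shortest class, 54.4% from 100 to 200 kb and 51.8% above 200 kb. The part that the level of the genes has in this was not tested further.

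**Figure D5:**
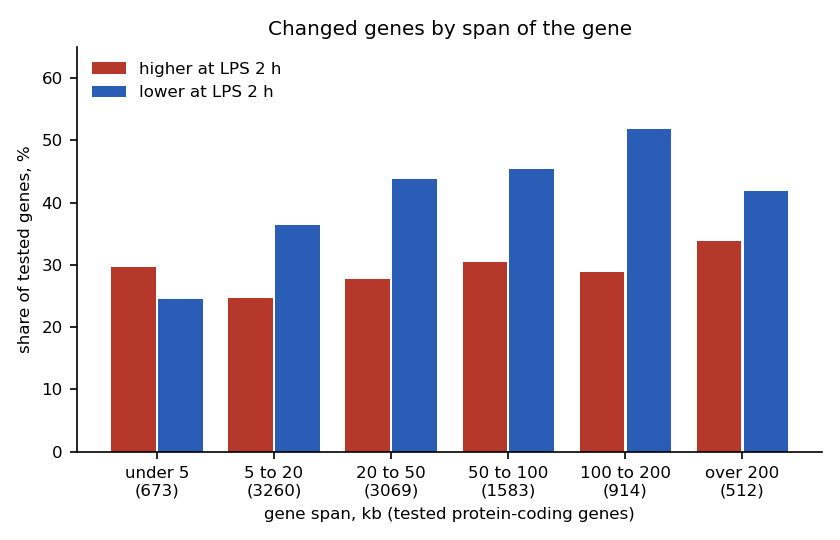
Share of tested protein-coding genes that rose (red) or fell (blue) at LPS 2 h, in percent, by the span of the gene in kb with the number of genes below each class. The share that fell goes from 24.5% under 5 kb to 51.9% between 100 and 200 kb, and the share that rose lies between 24.7% and 33.8%.

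Some genes that rose by at least 4-fold lay side by side. Of 989 such protein-coding genes 179 were in 49 runs of 3 or more tested neighbours that all rose this much. How many runs would arise if risen genes lay at random was not tested. Some runs cover long stretches, such as Ifih1, Gca and Cobll1 over 2643 kb. The longest run held the 11 genes from Aim2 to Ifi203 (chr1:173420604-173942672), DNA sensors and their relatives, with rises of 2.54 to 6.06. Others were the 8 genes around H2-T24, H2-T23 and H2-T22 (chr17:35979955-36129425), the Phf11 genes with Setdb2 and Cab39l (chr14:59276913-59548904), the Trim30 genes (chr7:104354559-104507849), Cxcl9 to Cxcl11 with Art3 (chr5:92321331-92414628, 7.32 to 9.10) and Gbp5, Gbp7, Gbp3 and Gbp2 (chr3:142496934-142638008, 4.35 to 8.75). Several of these are families of near copies, for which reads with several hits were dropped, and members that overlap on opposite strands, such as Art3 and Cxcl10, may share reads, so the rises within a run may not be independent measurements.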

How the data were processed

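The authors sequenced chromatin-associated RNA and deposited 1 table of normalised read counts per gene for all 27 samples, treated here as a score because the counts were rescaled on invariant genes and rounded to whole numbers. According to the study's methods and the submitters' processing notes, single-end reads were aligned to mm10 with TopHat2 2.1.1, reads with several hits or in blacklisted regions were removed with bedtools 2.29.2, and genes of the RefSeq GRCm38.p6 annotation were counted in R 3.6.2. DESeq2 is also named in the notes, without its role. Whether introns were counted and whether strand was used is not given in the sources used here. The depth of each library is unknown, so no counting interval can be given.

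Here log2(value + 1) was fitted with limma 3.58.1 in R 4.3.3 with a trend, without a replicate term, on the 6 samples, for genes with at least 10 in at least 3 of them. Two-sided p-values were Benjamini-Hochberg adjusted over all tested genes, with a threshold of 0.05. Comparisons with 1 h and 4 h used the 15 untreated and LPS samples. A fold against a group with every value at or under 3 is given as a bound against 3. Tables and figures were made in Python 3.11.15 with pandas 2.3.3, and the fit was tested on simulated data. The study's own model of whole time courses was not run.

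Named genes were a fixed set, the largest changes overall (8 each way among protein-coding and 3 among other genes) and in each of 22 lists (3 each way), ranked among called genes with a mean of at least 50 in the higher group and no overlap between groups, and the 8 genes with the largest difference from both neighbouring times in each direction. For these last genes every 2 h sample also had to lie beyond all samples at 1 h and 4 h. Other list members are named where their list is described. Overlaps between genes are those of their annotated spans. The members and lists were chosen with earlier results of these data known. The symbols March1, Mb21d1 and Tmem173 were not found in the table. Over 4712 genes, deviations from the group means of same-numbered samples correlated at 0.59, 0.36 and 0.44, so the numbers were taken to pair the samples. Replicates 2 and 3 of different groups correlated as much (0.38 and 0.42), so the pairing rests on replicate 1, whose correlations with other numbers were −0.52 to −0.43. The main fit leaves this pairing out, and the fit with the replicate block takes it in. Alternatives changed the pseudocount, filter, scaling, replicate block, libraries and samples in the fit. Some members of the lists are counted but not reported by name here.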

Additional observations from a re-analysis of the deposited data

Results flagged for a closer look

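For 4 of the 16 genes named as highest or lowest at 2 h, the difference from untreated at 2 h had the opposite sign from that at 1 h and 4 h. In these 4 genes limma found the difference between the times. Elovl6, Sla and Tg passed the test against untreated at 2 h (1.40, −1.61 and −1.61), and Stap1 did not (−0.48 ± 0.20, adjusted p = 0.0628), so for it a difference from untreated at 2 h is not shown. Elovl6 was 3.63 higher at 2 h than at 1 h on the log2 scale (adjusted p = 9.24e-06) and 3.70 higher than at 4 h. Stap1 was lower by −2.46 against 4 h (adjusted p = 5.25e-06), with 110, 99 and 135 normalised read counts in untreated samples. Sla differed from 4 h by −2.06 (adjusted p = 4.94e-07) and Tg, whose span holds Sla, by −2.04 (adjusted p = 5.43e-07), and the near-equal values of this pair cannot be told apart. Each of the 3 samples at 2 h lay beyond every sample at 1 h and 4 h for these genes, which was a condition for naming them.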

How the results depend on the processing

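Among 138 named genes compared with untreated, 2830 of 2880 values under the alternatives kept their direction and side of the threshold, 45 lost the call, 5 gained it and none changed sign. Apart from the fixed set, these genes were named as called, non-overlapping and large changes in the same samples. They could hardly lose a call, so this count does not speak for the other genes. With a mean of at least 50, 5074 genes changed and 2508 were lower, and fewer list genes passed because fewer were tested: 9 chemokines, 4 immediate early, 3 class II, 8 sterol, 8 cell cycle, 12 ribosomal, 9 oxidative phosphorylation and 76 Zfp genes. Equal totals gave 2186 higher genes, 16 ribosomal and 40 oxidative phosphorylation genes. The replicate block gave 8916 changed genes (3687 higher and 5229 lower) and 30 cell cycle genes, and of the named genes it changed the call of Mertk alone. With replicates 2 and 3 averaged, 138 and 246 genes were higher and lower than at both other times, and 21 ribosomal and 13 oxidative phosphorylation genes passed. Leaving out 1 library, with or without the tested genes kept, gave 6223 to 8314 changed, 2692 to 3591 higher and 3103 to 4723 lower genes, and 305 to 455 and 421 to 580 genes apart from both times. The lists ranged over 5 to 16 chemokines (5 to 15 with the filter applied again), 8 to 21 cytokines (8 to 19 with the filter applied again), 11 to 25 cell cycle, 27 to 46 ribosomal (27 to 42) and 12 to 22 oxidative phosphorylation genes. Without an LPS 2 h library 5 chemokines passed, since 3 samples with at least 10 were required, and with the tested genes kept all 16 did. Medians changed sign for TLR4 pathway kinases (−0.39, equal totals), the BCL-2 family (−0.13, equal totals), sterol genes (0.10 with a mean of at least 50, 0.15 by median of ratios, 0.01 without the replicate 1 libraries) and oxidative phosphorylation (0.16, 0.12 and 0.01 likewise, and −0.21 to 0.06 when 1 library was left out). Without the replicate 1 libraries, 701 genes were higher at 2 h than at both other times. Keeping the tested genes and leaving out replicate 1 were chosen after seeing the data. Beyond what is stated, the cause of these changes was not tested. Depth is unknown, so genes near the filter are the least certain.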

Other observations

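Of 1129 distinct list genes 1126 were in the table, 863 were tested and 64 were at 0 in all 6 samples. Of these, 47 were at 0 in all 27 samples, among them the interferon-stimulated genes Ifit3 and Ifit1bl1 and the GTPase genes Tgtp1 and Gvin1. Whether such a 0 reflects a silent gene or how reads were counted was not tested. The mitochondrial ribosomal RNA gene mt-Rnr2 was at 18051, 74181 and 73573 in untreated samples and at 14604, 87248 and 72704 at LPS 2 h, so that both replicate 1 libraries were low, and the groups did not differ by the test (−0.03, adjusted p = 0.975).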
